A study of Mus musculus with 4 samples.

Results

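The amyloid precursor protein (APP) family and the proteins that bind APP in the cell were examined transcript by transcript in mouse cortex, comparing the APPswe/PS1ΔE9 genotype (APP) with wild type (WT). The 8 genes were App, Aplp1, Aplp2, Apba1, Apba2, Apbb1, Apbb2 and Itm2b, chosen by the gene symbol that the deposited table gives to each transcript. Of 37539 transcripts, 12 carried one of these symbols when upper and lower case were treated alike, and 2 when spelled exactly. A further 14 transcripts, 10 of Apbb1 and 4 of Apbb2, carried no symbol in the table but belong to these genes by their Ensembl identifier, which gave 26 transcripts of 8 genes. The gene sums below follow the symbols, which gave 22919 features in all, and the transcripts are described for all 26.

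Both genotypes were 12 months old, male and on a C57BL/6 background, with 2 mice each and 1 cortical library per mouse. The APP mice carry 2 transgenes, a mouse APP with a human amyloid beta segment and the Swedish mutation (APPswe), and PS1ΔE9, and in this line both are driven by the prion protein promoter. The libraries are called APP.3, APP.4, WT.1 and WT.2 as in the table, and they held between 28525117 and 43881196 counts. Markers of cortical excitatory neurons (Slc17a7, Tbr1, Cux2, Fezf2 and Neurod6) were present in every library. Their levels summed by identifier lay between 446 and 557 CPM, which are counts scaled by library size after TMM normalization.

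APP is a membrane protein with a large outer part, and its cleavage by beta-secretase and then gamma-secretase releases amyloid beta, the peptide of the plaques in Alzheimer's disease (AD). APLP1 and APLP2 are its relatives, with a similar outer part and tail but without the amyloid beta segment. Their short tails in the cytoplasm share an NPTY motif, which is bound by the phosphotyrosine-binding domains of the APBA adaptors (also X11 or Mint), known from synaptic vesicle release and APP transport, and of the APBB adaptors (Fe65), which also act in the nucleus. ITM2B (BRI2) is a membrane protein that binds APP and is known to restrain its cleavage.

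The table held 1 transcript of App, App-201 (ENSMUST00000005406), at chr16:84954443-85173758 on the minus strand of GRCm38, with 16 exons and 3176 bases. GENCODE M21 lists 11 transcripts of App. App-201 codes for 695 residues, the form that predominates in neurons. The longest coding form, App-206, codes for 770 residues and holds 2 internal exons that App-201 lacks, of 168 bases (the Kunitz protease inhibitor exon) and 57 bases. Since no other App transcript was listed, the difference described below fell on App-201 by construction, and whether longer forms moved differently could not be tested.

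The part of App that the transgene alters is shown here as the reference mouse sequence, because reads of the transgene and of the mouse gene are not told apart in the counts of App-201. It covers the end of exon 14 (chr16:84965670-84965726) and the start of exon 15 (chr16:84962794-84962868). The capitals mark the 2 codons just before amyloid beta, where the Swedish mutation lies, and codons 5, 10 and 13 of amyloid beta, where mouse and human differ.
App-201 amyloid beta segment: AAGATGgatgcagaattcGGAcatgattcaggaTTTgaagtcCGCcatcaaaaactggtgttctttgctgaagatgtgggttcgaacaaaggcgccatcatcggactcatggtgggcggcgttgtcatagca
The study's forward primer for human APP, shown next, matched this mouse transcript exactly in exon 13 (chr16:84971408-84971427), and among 141767 annotated mouse transcripts it matched 4, all of App, while the reverse primer of the pair matched 0 exactly.
Human APP forward primer: AGGACTGACCACTCGACCAG

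The tails of the 3 family members are shown because they carry the motif that the adaptors bind. The capitals mark the codons of NPTY, in the last exon of each gene, at chr16:84955349-84955378 for App, chr7:30435308-30435337 for Aplp1 and chr9:31150889-31150918 for Aplp2, all on the minus strand.
App-201 tail: ggatatgagAATCCAACTTACaagttcttt
Aplp1-201 tail: ggctatgagAACCCCACCTACcgcttcctg
Aplp2-201 tail: ggttatgaaAACCCAACCTACaaatacctg
The motif was followed by 8 further residues in APP and APLP2 and by 7 in APLP1. Across the aligned proteins, 56.6% of residues were identical between APP and APLP2, 44.2% between APP and APLP1, and 46.7% between APLP1 and APLP2. The RNA was compared in another way, by stretches of 100 bases, so these counts cannot be set against the protein identities. None of the 3077 stretches of 100 bases in App-201 lay within 7 mismatches, the limit of the study's alignment, without gaps, of any stretch of Aplp1-201 (0 of 3077) or Aplp2-201 (0 of 3077).

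**Figure D1:**
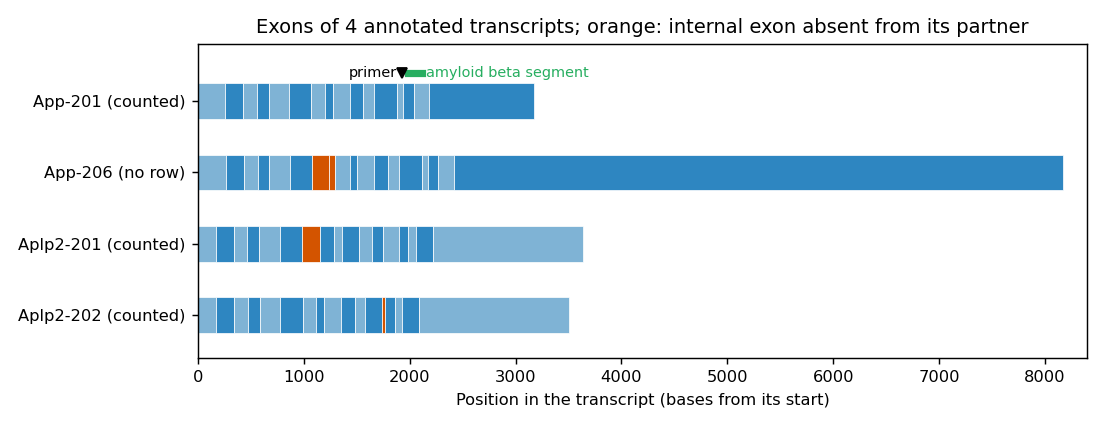
Exons of App-201, App-206, Aplp2-201 and Aplp2-202 along each transcript (bases from its start, boxes alternating in shade), with internal exons that the partner transcript lacks in orange. App-206, which has no counts of its own in the table, holds 2 such exons of 168 and 57 bases, Aplp2-201 holds 1 of 168 bases and Aplp2-202 holds 1 of 36 bases.

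App was higher in both APP libraries, and it was the only one of the 8 genes to pass the test. Its level was 2686 CPM in APP.3 and 2388 CPM in APP.4, against 856 CPM in WT.1 and 905 CPM in WT.2. The lowest APP library thus lay far above the highest WT library. The mean was 2537 ± 211 CPM in APP and 880.3 ± 34.4 CPM in WT (SD, n = 2 each). The fold change was 2.88 (95% confidence interval 2.58 to 3.22), or 1.53 ± 0.07 on the log2 scale (SE), with an adjusted p of 2.8e-06 by edgeR's quasi-likelihood test over all gene sums. A gene was called changed when its adjusted p was under 0.05 and its fold change 1.5 or more. Of all gene sums, 0.982% passed in either direction and 0.908% as higher in APP. By size of its log2 fold change App ranked 257 of 22919. Of the 256 features above it, 10 had a mean of at least 10 CPM and 0 had a higher mean than App.

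Measured per mouse, the gain was uneven between the APP libraries. Relative to the WT mean, App-201 stood at 3.07 in APP.3 and 2.70 in APP.4, while the WT libraries stood at 0.971 and 1.03. Leaving out either APP library or either WT library kept App called, with log2 fold changes between 1.44 and 1.61. As the mice were separate animals, the p-values measure the spread between 2 mice of a genotype as shared across genes. An exact two-sided permutation test of 2 against 2 cannot give a p below 0.333.

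**Figure D2:**
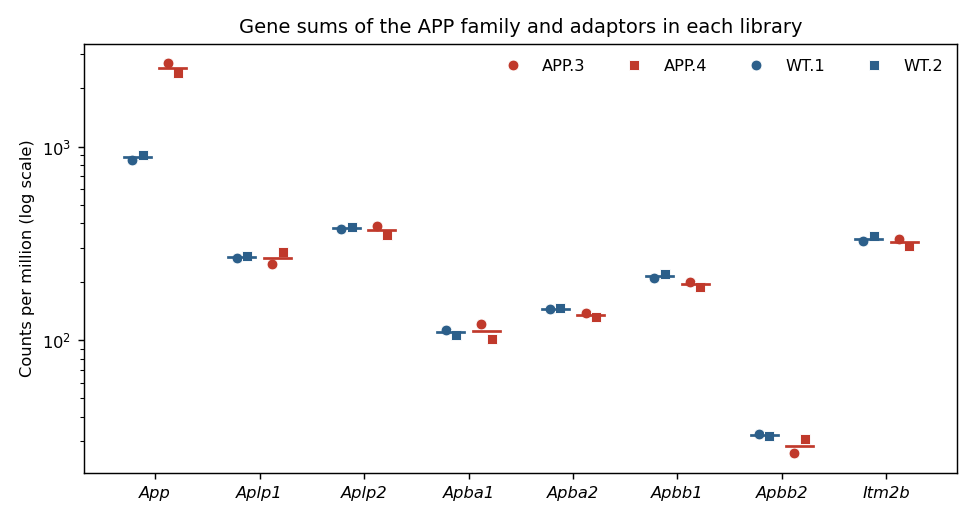
CPM of each gene sum (log axis) in the 4 libraries, with circles for APP.3 and WT.1, squares for APP.4 and WT.2, APP in red and WT in blue, and a line at each group's mean (n = 2). App lies at 2388 and 2686 in APP and at 856 and 905 in WT, and the fitted fold changes of the other 7 genes lie between 0.880 and 1.02.

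The relatives of App did not move with it. Aplp1, which is mostly neuronal, was at 247 and 285 CPM in APP.3 and APP.4 and at 264 and 271 CPM in WT.1 and WT.2. The WT libraries fell between the APP libraries, and the log2 fold change was -0.01 ± 0.08 (SE), with an adjusted p of 0.985 (edgeR) and a 95% confidence interval of the fold change from 0.880 to 1.12. Aplp1 was measured on Aplp1-201, at chr7:30434982-30445535 on the minus strand.

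Aplp2, which is expressed in many tissues, was at 390.0 and 348 CPM in APP and at 374 and 384 CPM in WT. Again the WT libraries lay inside the range of the APP libraries, and the log2 fold change was -0.04 ± 0.07 (SE; adjusted p = 0.918 by edgeR; fold change interval 0.869 to 1.09). In both genes the APP libraries were further apart than the WT libraries, with SDs of 27.03 and 30.04 CPM against 4.97 and 7.47 CPM. Their small differences depended on that spread. Without APP.3 the log2 fold change of Aplp1 was 0.086, and without APP.4 that of Aplp2 was 0.042, neither of them called. Both fold change intervals lie below the lower bound of that of App, 2.58.

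Aplp2 was counted on 2 transcripts at chr9, which differ in an inhibitor exon like that of the longer forms of App. Aplp2-201 codes for 751 residues and holds the exon of 168 bases, while Aplp2-202 codes for 707 residues, lacks it and holds an exon of 36 bases instead. Aplp2-202 took 5.98% (95% Wilson interval 5.56 to 6.43) and 6.11% (5.67 to 6.58) of the Aplp2 counts in APP.3 and APP.4. In WT.1 and WT.2 it took 5.80% (5.45 to 6.17) and 5.79% (5.41 to 6.19). The reads carry no molecular identifiers, so these intervals cover counting error only. Both APP shares were above both WT shares, but within the counting error of each other. Transcript usage, tested with edgeR's diffSpliceDGE over all genes with several transcripts, had an adjusted p of 0.993 for Aplp2. The transcripts share most of their sequence, with 90.9% of the 100-base stretches of Aplp2-201 also found in Aplp2-202 within 7 mismatches, and how the study assigned reads that fit both is not given in the sources used here.

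**Figure D3:**
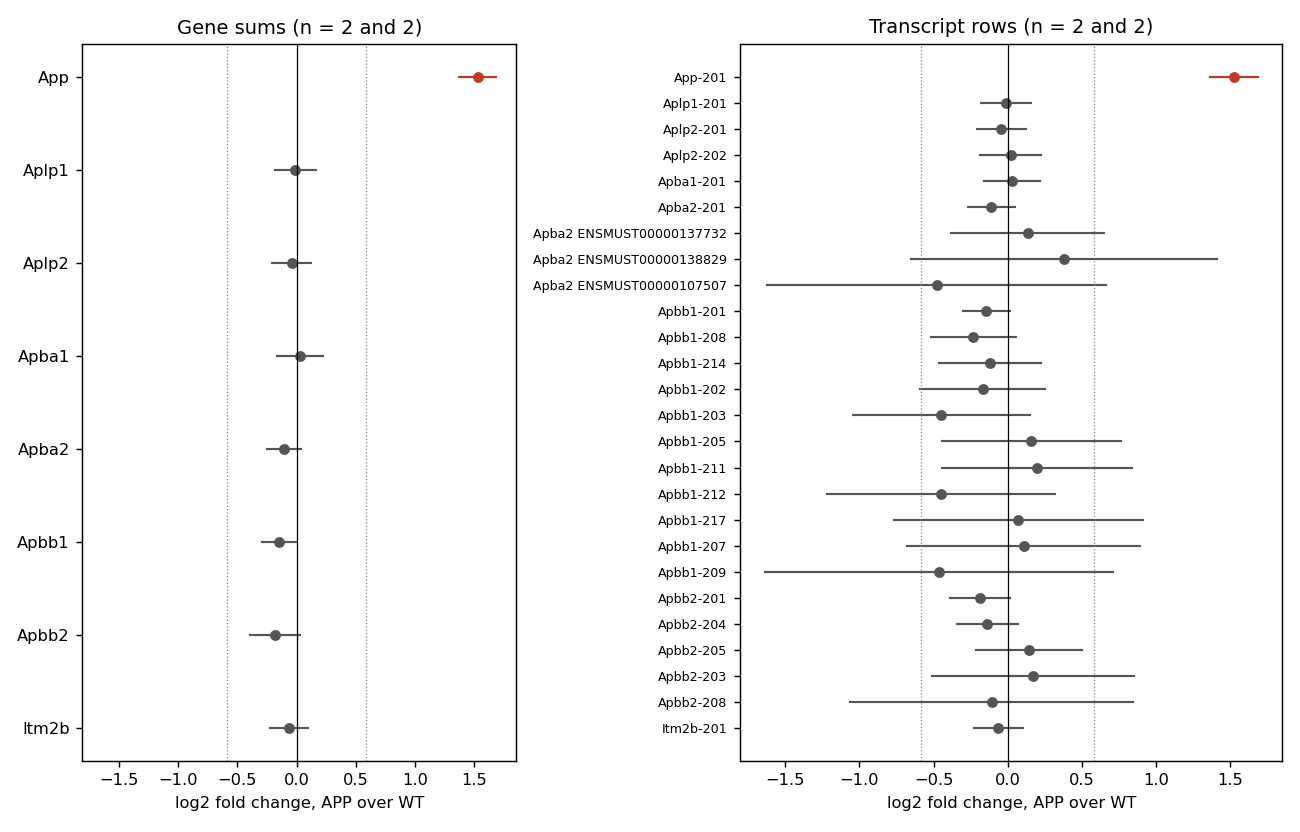
Log2 fold changes of APP over WT with 95% confidence intervals for the 8 gene sums (left) and the 26 transcripts (right), with dotted lines at a fold change of 1.5 in either direction and called features in red. App and App-201 stand apart at 1.53, and the other 25 transcripts lie between -0.48 and 0.38, with intervals that widen for transcripts of few counts.

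Among the adaptors, 3 of 4 were somewhat lower in both APP libraries than in both WT libraries, and none passed the test. Apba1, the neuronal X11α, was the exception, with 121 and 102 CPM in APP and 113 and 106 CPM in WT. Its APP libraries lay on either side of the WT libraries, and the log2 fold change was 0.03 ± 0.09 (SE; adjusted p = 0.954 by edgeR). Without APP.3 it was -0.11. Apba1-201 lies at chr19:23758887-23949596 on the plus strand.

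Apba2, the second neuronal X11 protein, was at 138 and 132 CPM in APP and at 145 and 146 CPM in WT. The groups did not overlap, but they lay close together, and the log2 fold change was -0.11 ± 0.07 (SE; adjusted p = 0.612 by edgeR; fold change interval 0.839 to 1.03). Between 98.1% and 98.5% of its counts in each library fell on Apba2-201, at chr7:64501706-64753878 on the plus strand. The other 3 Apba2 transcripts are not in GENCODE M21 and had at most 70 counts in a library.

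Apbb1 (Fe65) was at 199 and 189 CPM in APP and at 209.9 and 218 CPM in WT. All WT values were above all APP values, and the log2 fold change was -0.15 ± 0.07 (SE), with a fold change of 0.904 (95% confidence interval 0.815 to 1.003) and an adjusted p of 0.468 by edgeR. This sum by symbol holds Apbb1-201 only. Summing all 11 of its transcripts by identifier raised the level to 215 ± 8.19 CPM in APP and 239 ± 6.61 CPM in WT (SD, n = 2 each). The log2 fold change stayed at -0.15, with a 95% confidence interval of the fold change from 0.812 to 0.998. By edgeR the p was 0.047 before adjustment and 0.402 after it. Without APP.3, which leaves only APP.4 in its group, the sum by symbol had a log2 fold change of -0.19, short of the fold cut-off.

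Apbb2 (Fe65-like 1), the least abundant of the 8 genes, was at 25.9 and 30.9 CPM in APP and at 32.7 and 31.9 CPM in WT. The groups were again separate but near, with a log2 fold change of -0.18 ± 0.09 (SE; adjusted p = 0.523 by edgeR). Its size turned on which APP mouse was kept. With APP.4 alone against WT the value was -0.07, and with APP.3 alone it was -0.32, both short of the fold cut-off. By identifier its 5 transcripts reached 62.1 ± 2.83 CPM in APP and 68.4 ± 4.04 CPM in WT (SD, n = 2 each), since Apbb2-204, which carries no symbol in the table, held nearly as many counts as Apbb2-201. The log2 fold change was then -0.14, with an adjusted p of 0.509.

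The 3 adaptor genes that lay below WT are to be read against all gene sums, of which 20.0% had both APP libraries below both WT libraries and 21.1% had both above. Over the 8 genes, 3 lay below, 1 above and 4 overlapped. Levels of the cortical excitatory neuron markers summed by identifier were lower in APP too, at 486 and 446 CPM against 550.3 and 557 CPM. Slc17a7 alone made up most of this sum in every library, so the sum mainly follows that gene. Both APP libraries lay below both WT libraries for 3 of 5 markers (Slc17a7, Tbr1 and Cux2), while Fezf2 and Neurod6 overlapped between the groups. The log2 fold changes of 5 of 5 markers were below 0, that of Neurod6 at -0.02 ± 0.15 (SE), and 0 of 5 were called. Among all gene sums with a mean of at least 10 CPM, 5403 of 9564 were below 0. Summed by identifier, markers of all neurons (Rbfox3, Snap25, Syt1 and Stmn2) had 3490 and 2581 CPM in APP against 2976 and 2990 CPM in WT. These sums overlapped, and the log2 fold changes by identifier were -0.06, -0.13, 0.38 and 0.06 in this order. Syt1 was at 1304 CPM in APP.3, against 662 CPM in APP.4 and 766 and 743 CPM in WT. Of the others, Snap25 was lower in both APP libraries, at 1967 and 1706 CPM against 2003 and 2027 CPM in WT. Stmn2 was higher in both, and Rbfox3 overlapped. In bulk cortex, fewer cells of a type and less RNA per cell cannot be told apart, and the part of neuronal RNA in the adaptor values was not tested.

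Itm2b (BRI2) was at 334 and 305 CPM in APP and at 323 and 345 CPM in WT. The ranges overlapped, and the log2 fold change was -0.06 ± 0.07 (SE; adjusted p = 0.837 by edgeR; fold change interval 0.855 to 1.07). It was counted on Itm2b-201, at chr14:73362226-73385289 on the minus strand, which codes for 266 residues.

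Seen by transcript, App-201 was again the only member called (adjusted p = 9.8e-09 by edgeR over all transcripts), against 0.807% of all transcripts. Among the other 25 transcripts the lowest adjusted p was 0.594, for Apbb1-201, and 0 had an unadjusted p under 0.05 in edgeR's test. Both APP libraries lay below both WT libraries in 7 of 26 transcripts and above them in 3, namely App-201, Apbb2-205 and the Apba2 transcript ENSMUST00000137732. Over all transcripts these shares were 18.6% and 19.9%.

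Apbb1 was spread over 11 transcripts, of which Apbb1-201, at chr7:105558486-105574402 on the minus strand and coding for 710 residues, took between 89.6% and 90.0% of the counts in each library. The next was Apbb1-208, with 10.1 and 8.41 CPM in APP and 10.4 and 11.3 CPM in WT, which the table gives as a retained intron and GENCODE M21 as a target of nonsense-mediated decay. Apbb1-214, which codes for a protein, was at 5.14 and 4.56 CPM in APP and 5.06 and 5.48 CPM in WT. Apbb1-203 had the lowest log2 fold change of the Apbb1 transcripts above 1 CPM, at -0.45 ± 0.28 (SE; adjusted p = 0.708 by edgeR), on at most 71 counts in a library. Apbb1-202 was likewise lower in both APP libraries, with a log2 fold change of -0.17 ± 0.20 (SE), while Apbb1-205 and Apbb1-211 had 0.16 and 0.20, with overlapping groups. The usage of the 11 transcripts had an adjusted p of 0.996 by edgeR's diffSpliceDGE.

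Apbb2 was split between Apbb2-201, at chr5:66301888-66618671 on the minus strand, and Apbb2-204. Apbb2-201 was at 26.1 and 30.7 CPM in APP and 32.6 and 32.0 CPM in WT, and Apbb2-204 was at 28.8 and 26.99 CPM in APP and 32.8 and 28.5 CPM in WT. The former was higher in APP.4 than in APP.3 and the latter higher in APP.3, so that neither led in both mice. Of the 100-base stretches of Apbb2-201, 92.9% lay within 7 mismatches of Apbb2-204. A transcript with a retained intron, Apbb2-205, took 7.51% (95% Wilson interval 6.37 to 8.84) and 6.90% (5.86 to 8.10) of Apbb2 counts in APP, and 6.04% (5.25 to 6.93) and 5.77% (4.89 to 6.79) in WT. The APP shares were higher in both mice but their intervals overlapped those of WT, and the usage of the Apbb2 transcripts had an adjusted p of 0.993 by edgeR's diffSpliceDGE. Of the 4 genes with more than 1 transcript, 0 passed the usage test at an adjusted p under 0.05 and 0 had an unadjusted p under 0.05, against 0.173% of the genes tested that passed. The fourth, Apba2, had an adjusted p of 0.993 by edgeR's diffSpliceDGE.

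Per kilobase of transcript, which takes annotated length into account when genes are compared, App led the family in both genotypes. These levels, unlike the gene sums above, add all transcripts found by identifier that have a GENCODE M21 length, each divided by its own length. For App this was the 3176 bases of App-201, so the lengths of other App forms and of the transgene RNA do not enter. In WT App stood at 277 ± 11.5 CPM per kb, followed by Itm2b at 186 ± 8.90, Aplp1 at 114 ± 2.40, Aplp2 at 104 ± 2.31 and Apbb1 at 101 ± 2.49 CPM per kb (SD, n = 2 each). Apba2 followed at 43.1 ± 0.433, Apba1 at 16.5 ± 0.698 and Apbb2 at 16.1 ± 0.725 CPM per kb. Each gene was above the next in both WT libraries. The 2 WT values of Aplp2 (103 and 106) nevertheless overlapped the range of Apbb1 (99.6 and 103), as those of Apba1 (17.02 and 16.03) overlapped the range of Apbb2 (16.7 and 15.6), so these neighbours did not differ beyond the spread of the WT mice. With only the transcripts that carry a symbol, Apbb1 (Apbb1-201) was at 84.6 and Apbb2 (Apbb2-201) at 9.60 CPM per kb in WT, and neither overlapped the gene above it.

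In APP the order of the means was the same, and App stood at 799 ± 72.8 CPM per kb (SD, n = 2). Single mice differed from it, as Aplp2 was above Aplp1 in APP.3 (108 against 106 CPM per kb) and Apbb2 was marginally above Apba1 in APP.4 (both 15.3 CPM per kb). The level of App per kb was 2.39 and 2.46 times that of Aplp1 in the WT libraries, and 8.02 and 6.18 times in APP.3 and APP.4. Against Aplp2 it was 2.62 and 2.69 times in WT, and 7.86 and 7.84 times in APP. Of the summed level of the 8 genes per kb, App made up 32.0% and 32.5% in WT and 59.9% and 57.9% in APP.

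**Figure D4:**
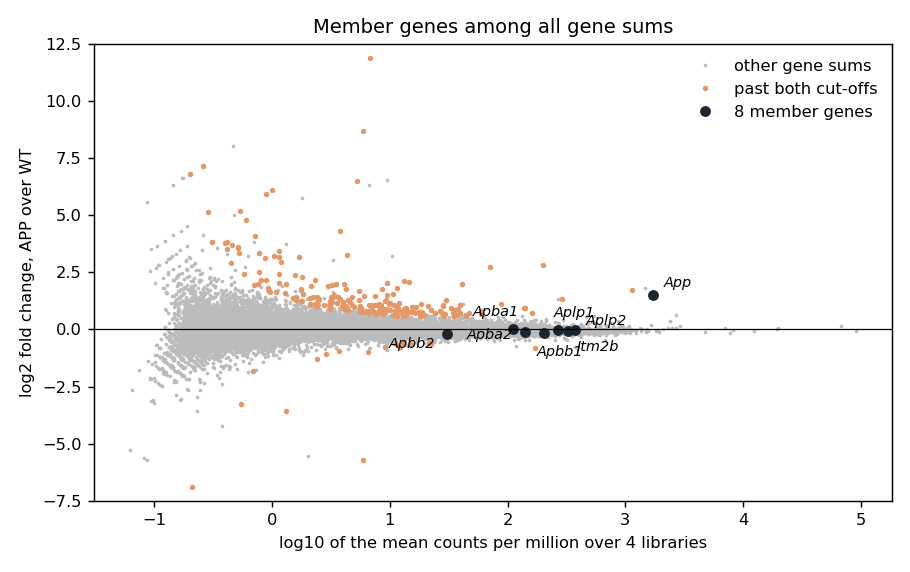
Log2 fold change of APP over WT against the log10 of the mean CPM over the 4 libraries for all 22919 gene sums (grey), those past both cut-offs (orange) and the 8 genes (black). App lies at 1.53 among the most abundant genes, and the other 7 lie between -0.18 and 0.03.

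The genes whose pattern over the 4 libraries lay nearest to that of App were found by the Euclidean distance between centred log2 CPM, among gene sums with a mean of at least 10 CPM. The nearest was Prnp, the prion protein gene, at a distance of 0.192, with 1861 and 1622 CPM in APP and 526 and 535 CPM in WT. It shared with App the higher value in APP.3 and the lower one in WT.1. Next came Serpina3n, a protease inhibitor of reactive astrocytes, at 0.226, and Ctsd, the lysosomal protease cathepsin D, at 0.308, whose symbol also covers transcripts of Gm49369. Trem2, a receptor of microglia, followed at 0.310 and Ctsz, a lysosomal carboxypeptidase, at 0.359. Their log2 fold changes were 1.72, 1.54, 1.32, 1.82 and 1.30 in this order. These distances rest on 4 libraries in 2 groups and carry no test.

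The wider set of family members and partners changed little. Against 0.982% of all gene sums, 1 of 5 further members or namesakes of these protein families passed both cut-offs. It was Apbb1ip (RIAM), a Rap1 effector of leukocytes that was named for binding APBB1, with 5.11 and 5.52 CPM in APP and 2.73 and 3.07 CPM in WT. The groups were separate, and the log2 fold change was 0.88 ± 0.17 (SE), with an adjusted p of 0.037 by edgeR, which became 0.052 when transcripts were summed by identifier. Microglia markers (Aif1, Csf1r, Cx3cr1, P2ry12 and Tmem119) were higher as well, with 3 of 5 called by symbol and 2 of 5 by identifier. By symbol, 0.908% of all gene sums were called as higher in APP. The levels of these markers summed by identifier were 155 and 189 CPM in APP against 112 and 111 CPM in WT. Their part in the value of Apbb1ip was not tested. Itm2a and Apbb3 had log2 fold changes of 0.11 and 0.08, and Itm2c and Apba3 had -0.02 and -0.02.

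None of 12 measured ligands and membrane partners of APP was called, with a median log2 fold change of -0.12, against 0.004 over all gene sums and -0.02 over those with a mean of at least 10 CPM. The smallest p-values were those of Cntn3 (contactin 3), at -0.21 on the log2 scale, Spon1 (F-spondin), at 0.19, and Tnfrsf21 (death receptor 6), at -0.16, with adjusted p-values of 0.393, 0.434 and 0.439 in edgeR's test. Of 9 cytoplasmic partners of APP, 0 were called, with a median of -0.03. Dab1, the adaptor of reelin signalling, led them with 78.7 and 74.6 CPM in APP and 67.1 and 65.0 CPM in WT, a log2 fold change of 0.21 ± 0.07 (SE; adjusted p = 0.234 by edgeR). Shc3 and Numb had -0.23 and -0.16.

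Of 8 partners of the adaptors, 0 were called, with a median log2 fold change of -0.08. The smallest p-values belonged to synaptic proteins. Stx1a (syntaxin 1A) was at 103 and 93.8 CPM in APP and 118 and 117 CPM in WT, with a log2 fold change of -0.26 ± 0.07 (SE; adjusted p = 0.149 by edgeR). Lin7b, of the complex of CASK, LIN7 and APBA1, had -0.38 ± 0.11, and Lin7a of the same complex had -0.13 ± 0.07 (SE; adjusted p = 0.167 and 0.514 by edgeR). Both APP libraries lay below both WT libraries in 5 of the 8 genes, these 3 among them, and above in 1, against 20.0% and 21.1% of all gene sums. The sum of the excitatory neuron markers given above, mostly Slc17a7, was lower as well, though Fezf2 and Neurod6 overlapped between the groups. The sum of the markers of all neurons overlapped, with Syt1 high in APP.3 only. The part of either set in these values was not tested.

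Of 10 secretase genes, 0 were called, with a median log2 fold change of 0.01. The smallest p-values were those of Psen2, a catalytic subunit of gamma-secretase, at 0.19 on the log2 scale, Ncstn (nicastrin), its substrate receptor, at 0.07, and Adam17, an alpha-secretase, at 0.08, with adjusted p-values of 0.734, 0.848 and 0.867 in edgeR's test. Summed by identifier, which measured all 14, 12, 9 and 11 genes of these last 4 lists, 0 were called in each of them.

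**Figure D5:**
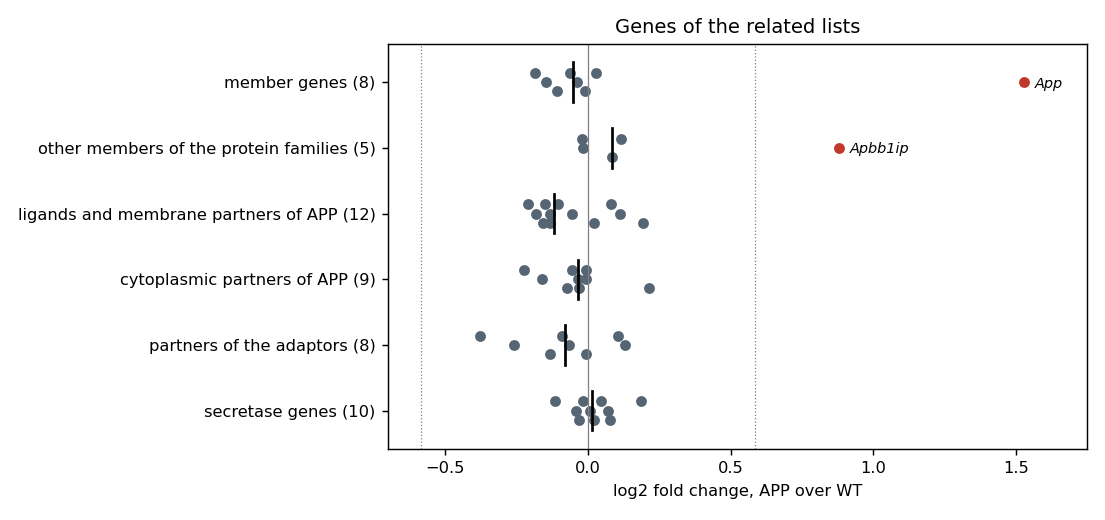
Log2 fold change of APP over WT for the 8 genes and for each measured gene of 5 related lists (points, called genes in red and numbers of genes in parentheses), with a bar at each median and dotted lines at a fold change of 1.5. App at 1.53 and Apbb1ip at 0.88 were called.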

How the data were processed

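The authors removed ribosomal RNA from cortical RNA of 2 APP and 2 WT mice. Strand-specific pairs of 100 bases were aligned with FANSe2 to Ensembl mouse RNA allowing 7 mismatches, and kept for transcripts with at least 10 reads. The submitters' processing notes name CASAVA 1.8, edgeR and the build hg19, which is human, whereas the identifiers are of mouse. The read counts per transcript were deposited by the authors without normalization. A further 4 columns of values per library and the authors' own comparison (fold change, mean level, p-value and FDR) were not used. The columns numbered 3 and 4 were tied to the APP group and not to single mice.

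The members and gene lists were chosen with earlier results of these data known. Counts were summed per symbol, ignoring case, and a transcript with no symbol (8274 of them) stayed a feature of its own. Of 28823 transcripts with both names, 5350 had a symbol other than the GENCODE name, so sums by GENCODE M21 identifier, which covered 98.2% of transcripts, were chosen as an alternative after seeing the data. Gene sums and transcripts were each fitted whole in R 4.3.3 with edgeR 4.0.16 (TMM, quasi-likelihood test, no covariate, Benjamini-Hochberg adjustment), with limma 3.58.1 and DESeq2 1.42.0 for alternatives. The common dispersion was 0.00781 for genes and 0.00875 for transcripts. The tests were checked on simulated counts. Sequences came from GENCODE M21 (GRCm38) and the study's primer list and were handled with Biopython 1.88 under Python 3.11.15. Protein identities are over aligned residues of global alignments of the translated coding sequences.

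Genes named were the 8 members, their transcripts with a mean of at least 1 CPM, the 5 genes nearest to App among those of at least 10 CPM, and from each related list the genes past both cut-offs or, with fewer than 3, the 3 of smallest p. Itm2c and Apba3, the remaining 2 of their list, and the markers were named beside these. A further 4 genes of the related and marker lists are not reported here, and the list counts, medians and sums leave them out.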

Additional observations from a re-analysis of the deposited data

How the results depend on the processing

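App and App-201 were called under every alternative run (library totals without TMM, DESeq2 size factors, DESeq2, edgeR's exact test, at least 10 counts in every library, protein-coding transcripts only for gene sums, sums by identifier for gene sums, and each library left out), and the other members under none of them. Each run without a library leaves 1 mouse in that group, so its p-values and calls take no spread from that group. Apbb1 and Apbb1-201 without APP.3 (log2 fold change -0.19 each) were short of the fold cut-off. So were Apbb2 and Apbb2-201 without APP.4 (-0.32 and -0.31). Gene sums called numbered 397 with the exact test against 225. Leaving out a library gave 184 to 732 called gene sums and 323 to 875 called transcripts, against 303, with the most without APP.3 (732 and 875) and many without APP.4 (582 and 698). Called members of the further family list numbered 0 against 1 with at least 10 counts in every library, with protein-coding transcripts, with sums by identifier, and without WT.1 or WT.2 (0 to 1 over libraries left out). Among the member genes and their transcripts of at least 1 CPM, signs turned only when a library was left out, and for no called value. The log2 fold change ranged from -0.12 to 0.086 for Aplp1, -0.13 to 0.042 for Aplp2 and -0.11 to 0.15 for Apba1. By transcript it ranged from -0.11 to 0.084 for Aplp1-201, -0.14 to 0.045 for Aplp2-201, -0.054 to 0.094 for Aplp2-202, -0.11 to 0.16 for Apba1-201, -0.0086 to 0.37 for Apbb1-211 and -0.14 to 0.0058 for Itm2b-201. The cause was not tested. A comparison of App transcripts with each other could not be fitted, as the table holds 1. No paired analysis was run, because the mice were separate animals and the sources used here give no pairing between the genotypes. Transcripts under about 1 CPM rest on few counts, and their intervals are wide.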
